A study of Rattus norvegicus with 24 samples.

Results

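Serum microRNAs (miRNAs) of rats given both a fish oil diet and ozone were compared with those of rats given neither. The rule took the rats labelled with the fish oil diet and ozone exposure (5 libraries) and those labelled with the normal diet and air exposure (6 libraries), 11 of the 23 libraries used and of 24 labelled samples, 1 rat each. All rats were male Wistar Kyoto, an inbred strain with normal blood pressure. From 4 weeks of age and for 8 weeks, the treated rats ate chow holding fish oil at 6% of its weight and the controls ate the facility's standard chow. They then breathed ozone at 0.8 ppm (measured at 0.8045 ppm) or filtered air for 4 h on each of 2 consecutive days, and serum was made from blood of the abdominal aorta. The remaining libraries, 6 from rats on fish oil in air and 6 from rats on the normal diet in ozone, entered the same fit and served for the direct tests below. The 2 factors changed together between the compared groups, and diets with other oils were not analysed here, so fish oil cannot be told apart from any other difference between these diets. Rats were housed 2 per cage, and animal numbers ran in separate blocks for each group, so a batch following those blocks cannot be told apart from the groups. The labels name neither batches nor cage-mates. Replicate 2 of the fish oil ozone rats was not analysed here.

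Mature miRNAs are short RNAs that guide silencing complexes to messenger RNAs, mainly by pairing through a seed near their 5′ end, so miRNAs with 1 seed are expected to share many targets. They are cut from hairpins, often several per primary transcript, and some reach the blood in vesicles, protein complexes and lipoproteins, from platelets and other blood cells, the vessel wall, the liver and other organs. Ozone is an inhaled oxidant that acts first on the airway lining, and long-chain n-3 fatty acids of fish oil enter membranes and plasma lipids.

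Mature sequences from RefSeq (assembly GRCr8), matched by miRNA name, were found for 125 of the 136 miRNAs tested and for 20 of the 21 that changed; miR-328a-3p had no entry. They are written 5′ to 3′ with the seed, bases 2 to 8, in capitals. The first set shows 3 lowered miRNAs: the neighbours miR-191a-5p and miR-425-5p, described together, and miR-128-3p. Each has a seed of its own among those printed.
miR-191a-5p: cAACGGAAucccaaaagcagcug
miR-128-3p: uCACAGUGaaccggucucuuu
miR-425-5p: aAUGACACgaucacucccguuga

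The second set shows some of the raised miRNAs, those of smooth muscle, mesenchyme, endothelium and exocrine pancreas. This set does not follow the order of p.
miR-143-3p: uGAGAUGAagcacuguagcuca
miR-199a-3p: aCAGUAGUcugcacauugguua
miR-126a-5p: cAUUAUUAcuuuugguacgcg
miR-217-5p: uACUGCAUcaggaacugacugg

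The third set shows groups with a shared seed whose members took different values, which the results on families turn on.
miR-181d-5p: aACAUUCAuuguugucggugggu
miR-181b-5p: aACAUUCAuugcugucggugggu
miR-181a-5p: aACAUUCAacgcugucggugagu
miR-181c-5p: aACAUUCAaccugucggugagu
miR-152-3p: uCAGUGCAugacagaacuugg
miR-148a-3p: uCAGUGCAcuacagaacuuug
miR-148b-3p: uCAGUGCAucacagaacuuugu
miR-146b-5p: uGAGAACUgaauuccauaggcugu
miR-146a-5p: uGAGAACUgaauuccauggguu
miR-92a-3p: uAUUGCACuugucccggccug
miR-363-3p: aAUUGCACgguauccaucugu
miR-92b-3p: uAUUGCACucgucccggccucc
miR-25-3p: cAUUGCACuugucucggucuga
miR-497-5p: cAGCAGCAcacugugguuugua
miR-16-5p: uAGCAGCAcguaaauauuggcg

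The last set shows 2 pairs whose members are close to identical. Counted from 1 at the 5′ end, miR-30a-5p and miR-30e-5p differ by C13U and miR-29a-3p and miR-29c-3p by C10U, and in the third set miR-181b-5p and miR-181d-5p differ by C12U. How reads that fit several names were shared out is not given in the sources used here, so levels within these pairs are uncertain.
miR-30a-5p: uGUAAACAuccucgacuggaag
miR-30e-5p: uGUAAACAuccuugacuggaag
miR-29a-3p: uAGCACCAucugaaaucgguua
miR-29c-3p: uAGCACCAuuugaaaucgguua

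The serum libraries of the rats given both held fewer miRNA counts. The miRNA total was 65638 ± 15675 counts per library in the controls (SD, n = 6, from 45372 to 88397) and 33302 ± 7385 in the rats given both (SD, n = 5, from 26772 to 45064), with no overlap. The ratio of geometric means was 0.51 (two-sided exact permutation p = 0.00433; adjusted p = 0.0152 over 7 library measures; 0.00216 is the smallest p this design allows). The read total behind the deposited RPM values (reads scaled to 1 total per library), worked out from both tables and called the implied read total, had a ratio of 0.848 (exact permutation p = 0.483), and the miRNA share of it went from 1.36 ± 0.563% (SD, n = 6) to 0.826 ± 0.335% (SD, n = 5), which missed the threshold (exact permutation p = 0.0714, adjusted p = 0.1). Rats on fish oil in air had 37262 ± 11332 miRNA counts and a share of 0.66 ± 0.181% (SD, n = 6). The low values were thus not particular to the rats given both. Rats on the normal diet in ozone had 63357 ± 20129 counts and 1.56 ± 0.578% (SD, n = 6). Markers of several cell types were present at low or high counts: over the 11 libraries compared miR-451-5p of red cells gave 3 to 65 counts, miR-142-3p of leukocytes 0 to 7, miR-1-3p of striated muscle 0 to 97 and miR-122-5p of hepatocytes 231 to 5625. Among the other red cell markers, miR-16-5p gave 332 to 1393 counts and miR-144-3p 2 to 33. Among those of platelets and leukocytes, miR-191a-5p gave 985 to 19980, miR-223-3p 18 to 264 and miR-150-5p 16 to 74. A haemolysis index, log2 of miR-451-5p over miR-23a-3p with 1 count added to each, was −2.12 ± 0.552 in the controls (SD, n = 6) and −2.14 ± 1.24 in the rats given both (SD, n = 5; exact permutation p = 0.978). Count totals also follow sequencing depth, and the share missed the threshold, so less miRNA in the serum was not shown. What lowered the totals was not tested. For any serum miRNA, the number of releasing cells and the release per cell cannot be told apart.

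Relative to most other miRNAs, serum of the rats given both held less of miR-191a-5p, the most abundant miRNA of the controls. It held more of miR-143-3p, the most abundant in the rats given both. That rise missed the threshold once counts were scaled to implied read totals (log2 difference 0.54 ± 0.40, SE; edgeR adjusted p = 0.364). Under TMM scaling its call was lost in 6 of the 23 fits that left out 1 library. Lowered beside miR-191a-5p were its genomic neighbour miR-425-5p, miR-128-3p, miR-328a-3p, miR-181d-5p and members of the miR-17-92 clusters. Raised beside miR-143-3p were other miRNAs typical of vessel wall and mesenchyme (miR-126a-5p, miR-199a-3p, miR-10b-5p), with miR-152-3p, miR-217-5p, miR-30a-5p and miR-30e-5p. Of 136 miRNAs tested with the edgeR quasi-likelihood test (threshold 0.05 after Benjamini-Hochberg adjustment), 21 changed (15.4%), 11 higher (8.09%) and 10 lower (7.35%). At an unadjusted p under 0.05 there were 50 (36.8%). Of the 11 raised, miR-217-5p, miR-10b-5p and miR-144-5p had 0 control libraries at the cutoff of the low-count filter (220 CPM before TMM, needed in at least 5 libraries) and were tested only because they are higher elsewhere, so their place in the counts supports nothing. Levels below are in CPM, miRNA counts scaled to a common library total and by TMM, edgeR's trimmed mean of M values. Rose and fell therefore mean relative to most other miRNAs.

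Scaling by the implied read total of each library, from the RPM table, took the median log2 difference of all 136 from 0.10 to −0.56, a shift of −0.66. It gave 1 miRNA called higher (0.735%) and 29 lower (21.3%). The 10 lowered miRNAs were called lower under that scaling too; the 11 raised ones kept positive differences, and miR-217-5p alone was still called higher. limma on log2(RPM + pseudocount) gave 0 higher and 19 lower at a pseudocount of 10, and 1 higher and 32 lower at 1. With plain total count scaling the split was 12 higher and 6 lower, and no miRNA named here as changed took the opposite direction under any alternative run.

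**Figure D1:**
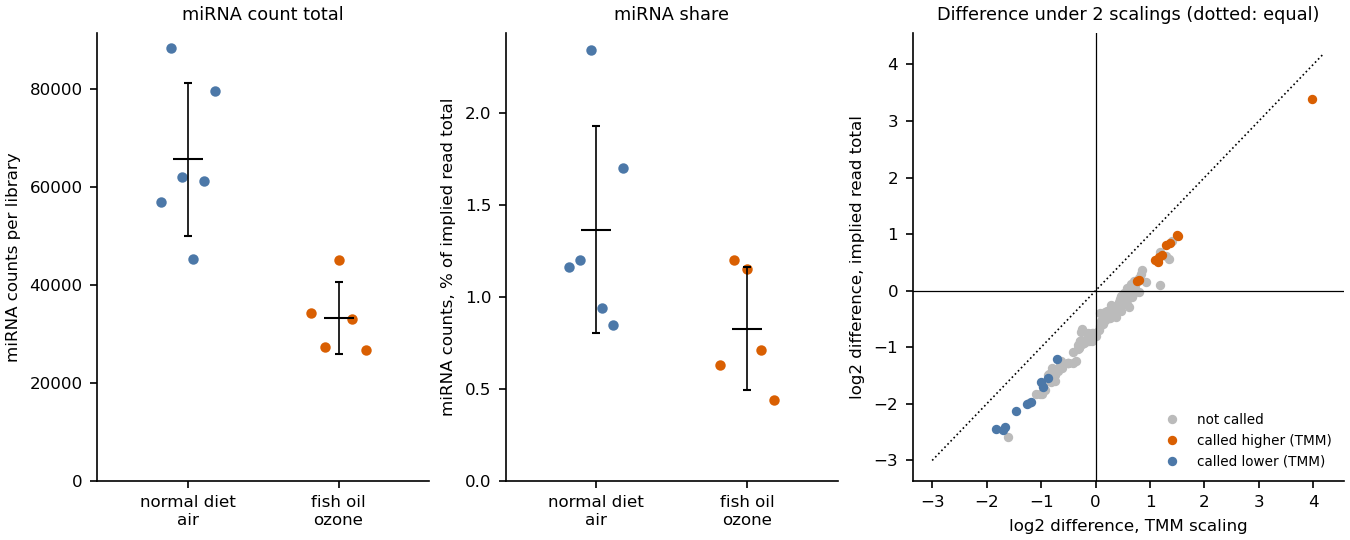
The left plot gives miRNA counts per library and the middle plot the same counts in percent of that library's implied read total, with 1 point per rat, a bar for the mean and whiskers for the SD. The right plot sets the log2 difference of each of the 136 miRNAs under TMM scaling (horizontal) against that from scaling by the implied read totals (vertical); points lie below the dotted line of equality, and the median moves from 0.10 to −0.56.

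**Figure D2:**
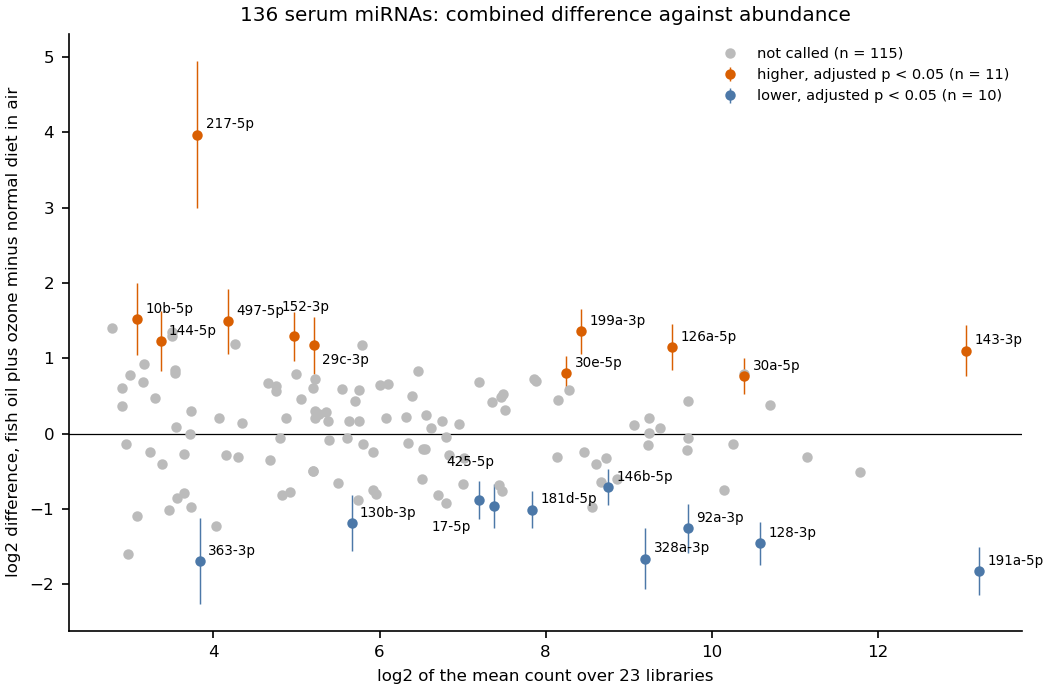
Each point is 1 of the 136 tested miRNAs, placed by the log2 of its mean count over 23 libraries (horizontal) and its log2 difference between rats given fish oil plus ozone and rats on the normal diet in air (vertical); bars are SE. The 11 raised miRNAs reach 3.97 for miR-217-5p and the 10 lowered ones −1.83 for miR-191a-5p, which is also among the most abundant.

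The pair miR-191a-5p and miR-425-5p came down together. Both are abundant in platelets and other blood cells, and their loci start 453 bp apart on chromosome 8 of rn5 (116698881 to 116698904 and 116699334 to 116699357), in the span of Dalrd3 by RefSeq. For miR-191a-5p the controls ran from 177772 to 347737 CPM with a median of 255104, and the 5 rats given both had 56564, 32372, 103451, 49042 and 117385. Every treated value lay below every control value. On average it went from 254369 ± 64687 (SD, n = 6) to 71763 ± 36689 CPM (SD, n = 5), a log2 difference of −1.83 ± 0.32 (SE; edgeR adjusted p = 0.000416). As a share of all miRNA counts it fell from 23.3 ± 4.39% (SD, n = 6) to 7.43 ± 4.67% (SD, n = 5; exact permutation p = 0.00216, the smallest possible; adjusted p = 0.0152).

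For miR-425-5p the controls ran from 2651 to 4839 CPM with a median of 3638, and the rats given both had 1614, 1052, 2813, 2901 and 1866. All 5 were below the control median, and fish oil ozone 4 and 5 overlapped the control range. It fell, with a log2 difference of −0.88 ± 0.25 (SE; edgeR adjusted p = 0.0187). Within each library, miR-425-5p gave 0.0114 to 0.0194 counts per count of miR-191a-5p in the controls and 0.0159 to 0.0592 in the rats given both, ranges that overlap.

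Among 9 platelet miRNAs tested, these 2 fell and none rose, where 7.35% fell and 8.09% rose over all 136. The median log2 difference of the list was −0.33, beside 0.10 over all miRNAs. The others were uncalled, among them miR-223-3p at −0.61 ± 0.38 (SE; edgeR adjusted p = 0.225), miR-185-5p at −1.23 ± 0.44 (0.0515) and miR-126a-3p at 1.35 ± 0.48 (0.0515). This list holds miR-126a-3p, which passed the low-count filter only with the fish oil libraries, and not its other arm miR-126a-5p, which rose. All members of the list together took 25.7 to 36.7% of the counts in the controls and 9.67 to 21.6% in the rats given both. Of these shares, 23.3% and 7.43% of all counts on average were miR-191a-5p, and no member was at 0 throughout. The part of platelet carry-over into serum in these values was not tested.

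miR-128-3p, a brain-enriched miRNA that also represses a cholesterol transporter and the LDL receptor, fell as well. It ran from 33042 to 42340 CPM in the controls (median 39492), and the rats given both had 10059, 9465, 19692, 6782 and 24199. The highest treated rat lay below the lowest control, and the log2 difference was −1.46 ± 0.29 (SE; edgeR adjusted p = 0.000953). It is read from 2 loci, on chromosomes 13 and 8, with 34875 of its counts at the first and 451 at the second.

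miR-328a-3p, at 48128936 to 48128958 on chromosome 19, ran from 8355 to 24600 CPM in the controls (median 15583), and the rats given both had 7234, 1249, 4447, 3724 and 7771. The groups did not overlap, with a log2 difference of −1.66 ± 0.40 (SE; edgeR adjusted p = 0.00849).

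**Figure D3:**
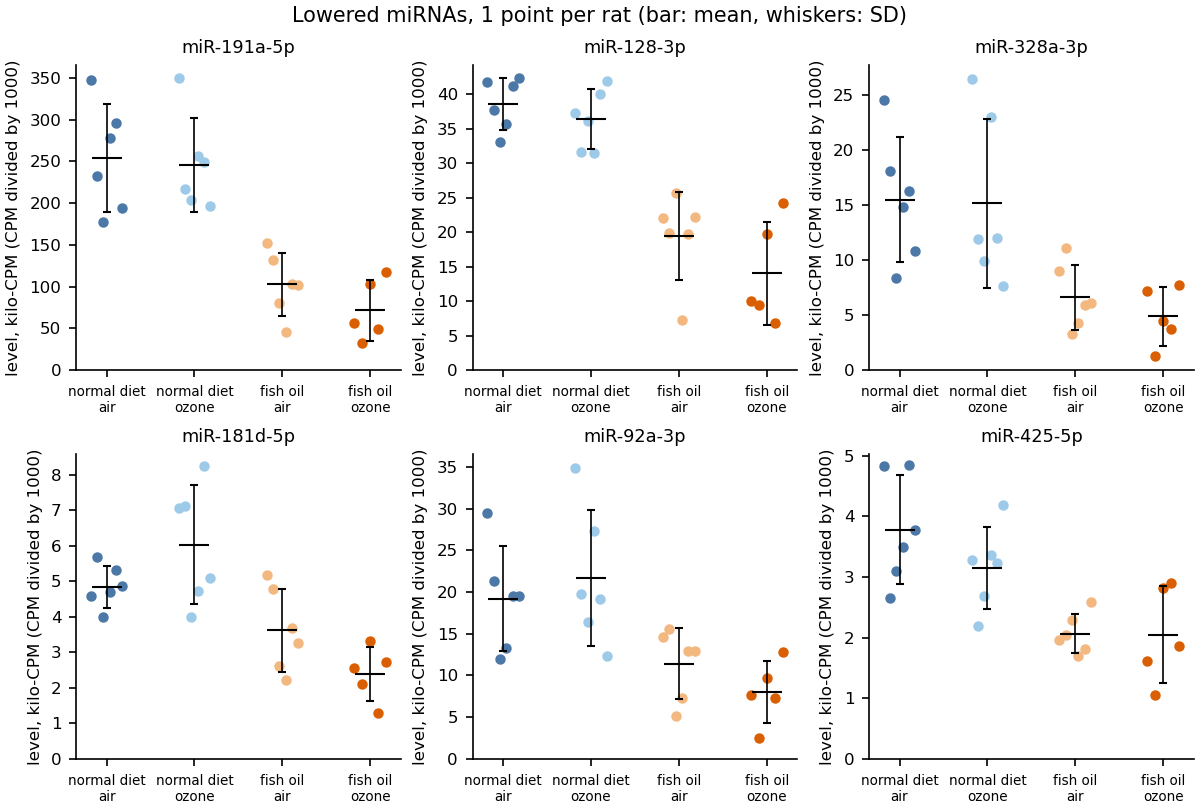
Levels of the 6 lowered miRNAs with the smallest p, in CPM (vertical, axis in kilo-CPM), for each rat of the 4 groups; bars are means and whiskers SD. For miR-191a-5p, miR-128-3p, miR-328a-3p and miR-181d-5p the fish oil plus ozone points lie below all points of the normal diet in air.

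The miR-17-92 cluster and its copies encode miRNAs of proliferating and blood-forming cells. miR-92a-3p ran from 11942 to 29419 CPM in the controls (median 19552), and the rats given both had 7637, 2564, 9664, 7331 and 12788. Only fish oil ozone 6 reached into the control range, and the log2 difference was −1.26 ± 0.33 (SE; edgeR adjusted p = 0.0102). From neighbouring loci, miR-17-5p (−0.96 ± 0.29, edgeR adjusted p = 0.0226) and miR-363-3p (−1.69 ± 0.57, edgeR adjusted p = 0.0377) fell too. miR-363-3p was counted only on chromosome X. On chromosomes 15 and X miR-92a-3p had 18041 and 1228 counts and miR-17-5p 3456 and 396. For miR-17-5p the controls ran from 3010 to 5185 CPM (median 3541), and the rats given both had 1770, 1249, 2019, 1450 and 3243, of which fish oil ozone 6 lay within the control range. miR-363-3p rests on few reads, 6 to 42 counts per control library and 1, 0, 14, 2 and 3 counts in the rats given both.

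Other members of that cluster on chromosome 15 were not called: miR-20a-5p differed by −0.81 ± 0.30 (SE; edgeR adjusted p = 0.0553), miR-19b-3p by −0.25 ± 0.26 and miR-19a-3p by −0.12 ± 0.31. Of the 4 tested members of the miR-17 family 1 fell, and of the 4 of the miR-25 and miR-92 family 2 fell, with none raised and medians of −0.56 and −1.09. Over all 136 miRNAs 7.35% fell, 8.09% rose and the median was 0.10. Also lowered were miR-130b-3p (−1.19 ± 0.37, edgeR adjusted p = 0.0289), with 689 to 1743 CPM in the controls against 466, 98.6, 499, 588 and 1101, and miR-146b-5p (−0.71 ± 0.24, adjusted p = 0.0353). The groups overlapped for both.

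miR-143-3p, made in vascular smooth muscle from a transcript shared with miR-145, was the most abundant miRNA in the rats given both. Its single locus is on chromosome 18 (56200210 to 56200232), in the span of the non-coding gene Carmn. The controls ran from 86735 to 271247 CPM (median 119583), and the rats given both had 354165, 240214, 269992, 439496 and 168812. All 5 exceeded the control median, but normal air 4, at 271247, lay above 3 of them. The log2 difference was 1.10 ± 0.34 (SE; edgeR adjusted p = 0.0255), and the share of counts went from 12.4 ± 4.9% (SD, n = 6) to 28.2 ± 5.5% (SD, n = 5; exact permutation p = 0.00649, adjusted p = 0.0152).

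miR-126a-5p, of endothelial cells and the Egfl7 gene, ran from 6453 to 14404 CPM in the controls (median 10101), and the rats given both had 17168, 31814, 28835, 25638 and 12268. Fish oil ozone 6 alone lay within the control range. The log2 difference was 1.15 ± 0.30 (SE; edgeR adjusted p = 0.00891), and its other arm, miR-126a-3p, with a mean of about 11 counts, differed by 1.35 ± 0.48 and missed the threshold (0.0515).

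Of 6 vascular wall miRNAs tested, these 2 rose and none fell, beside 8.09% raised over all. The median was 1.12 beside 0.10 over all. miR-126a-3p and miR-222-3p had 1 control library each at the low-count filter's cutoff and passed only with the fish oil libraries. Their place in that count and median supports nothing. The uncalled members were miR-145-5p (1.19 ± 0.49, edgeR adjusted p = 0.077), miR-126a-3p, miR-221-3p (0.53 ± 0.23) and miR-222-3p (0.37 ± 0.59); the last 2 turned negative with the implied read total, at −0.04 and −0.46, where the list's median was 0.31. The list took 9.33 to 22.8% of the counts in the controls and 22.7 to 36.5% in the rats given both. The larger part of these shares was miR-143-3p, and none of the list was at 0 throughout.

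miR-199a-3p, a miRNA of fibroblasts and other mesenchymal cells, ran from 3408 to 8378 CPM in the controls (median 4486), and the rats given both had 20894, 19029, 12432, 6821 and 5537. It was counted at 1 locus, on chromosome 13 (85019466 to 85019488), in the span of Dnm3. Fish oil ozone 1, 3 and 4 lay above every control. The log2 difference was 1.36 ± 0.30 (SE; edgeR adjusted p = 0.00398). miR-10b-5p, of the Hoxd cluster, also rose (1.52 ± 0.48, edgeR adjusted p = 0.029), from 39.8 to 176 CPM in the controls to 310, 526, 227, 392 and 184, without overlap but on a mean of 8.48 counts; with no low-count filter the miR-10b-5p log2 difference was 1.44 and its call was lost (0.0798). Of 4 mesenchymal miRNAs tested, these 2 rose and none fell, with a median of 1.01, beside 8.09% raised and a median of 0.10 over all. miR-10b-5p passed the low-count filter only through the fish oil groups, so its place in that count and median supports nothing. miR-100-5p (0.67 ± 0.33) and miR-99a-5p (0.26 ± 0.43) were uncalled and turned negative with the implied read total, at −0.11 and −0.48.

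miR-152-3p, known to repress the DNA methyltransferase Dnmt1, ran from 324 to 581 CPM in the controls (median 461), and the rats given both had 1552, 1610, 1044, 862 and 642. Its locus is on chromosome 10 (84512284 to 84512305), in the span of Copz2. The groups did not overlap, and the log2 difference was 1.29 ± 0.32 (SE; edgeR adjusted p = 0.00849). miR-497-5p, of the family of miR-15 and miR-16 that represses cell cycle genes, ran from 78.3 to 380 CPM (median 272) against 869, 1413, 499, 392 and 489. Its groups did not overlap either, on a mean of 18.1 counts (log2 difference 1.49 ± 0.43, edgeR adjusted p = 0.0194).

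miR-217-5p, which is typical of pancreatic acinar cells, was close to undetected in the controls; its locus is on chromosome 14 (112809693 to 112809715). Control counts were 1, 0, 3, 3, 1 and 4, and in the rats given both 33, 18, 28, 11 and 3. On the CPM scale the controls reached 81.3 and the treated rats had 1024, 592, 635, 431 and 91.8, so the groups came close but did not overlap. On this scale 3 counts correspond to 34.9 to 81.3 CPM in the controls and 68.1 to 118 CPM in the treated libraries (counting error only). The fitted log2 difference was 3.97 ± 0.98 (SE; edgeR adjusted p = 0.00891), a value that depends on how near-zero counts are treated. With limma on log2(RPM + pseudocount) the miR-217-5p log2 difference was 1.74 at a pseudocount of 1 (adjusted p = 0.0278) and 0.47 at 10, where the call was lost (0.0658). It passed the low-count filter only through the fish oil groups, with 0 control libraries at the filter's cutoff. Its list partner miR-375-3p, of islet cells, differed by 0.50 ± 0.33 and was uncalled (0.237), with −0.23 under the implied read total.

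**Figure D4:**
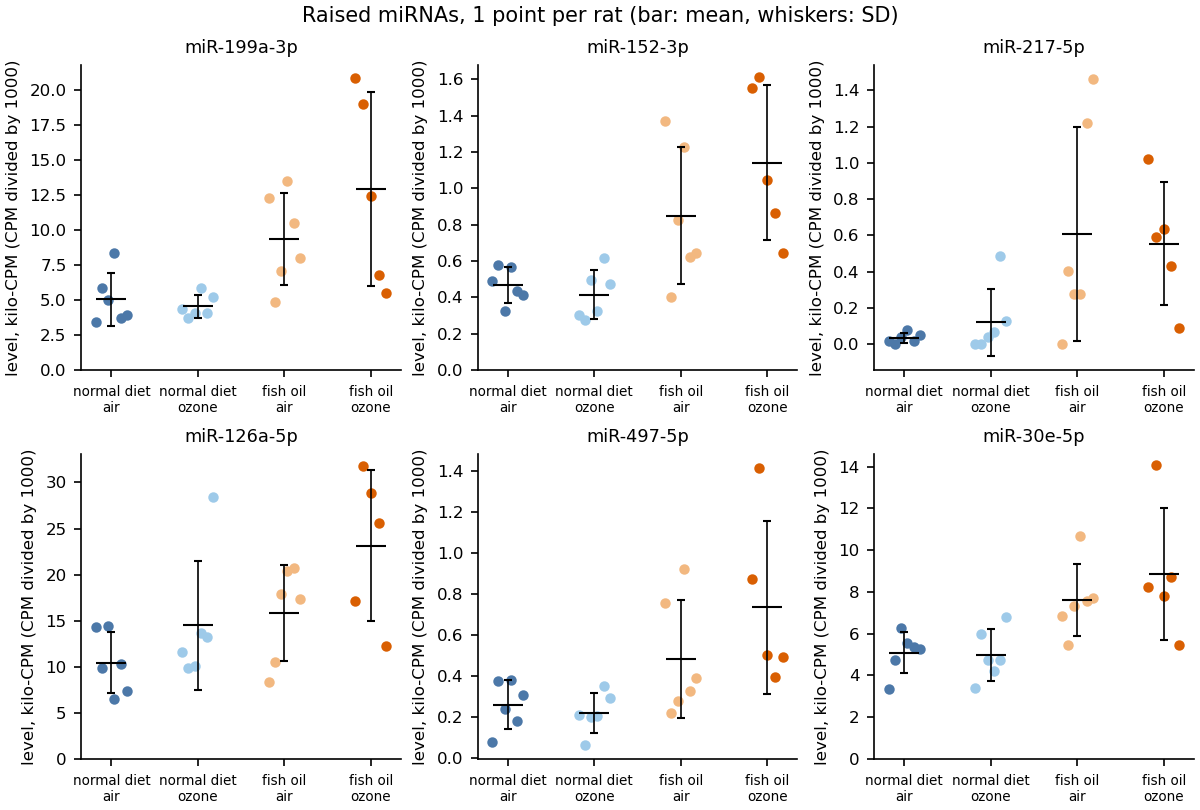
Levels of the 6 raised miRNAs with the smallest p, in CPM (vertical, axis in kilo-CPM), for each rat of the 4 groups; bars are means and whiskers SD. For miR-152-3p, miR-217-5p and miR-497-5p the fish oil plus ozone points lie above all points of the normal diet in air, while for miR-199a-3p, miR-126a-5p and miR-30e-5p they overlap.

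miR-30e-5p ran from 3349 to 6274 CPM in the controls (median 5324), and the rats given both had 8227, 14066, 7804, 8703 and 5446. Fish oil ozone 6 lay within the control range, and the log2 difference was 0.80 ± 0.23 (SE; edgeR adjusted p = 0.0203). miR-30a-5p, of the same seed, rose by 0.76 ± 0.24 (SE; edgeR adjusted p = 0.029), from 18753 to 40183 CPM in the controls (median 21400) to 47965, 45322, 38590, 52884 and 22700, with overlap. Of the 4 tested members of that family these 2 rose, beside 8.09% raised over all 136. In it miR-30c-5p (0.61 ± 0.41) and miR-30d-5p (0.07 ± 0.21) were uncalled, and miR-30d-5p had −0.69 under the implied read total. miR-29c-3p, of a family that represses collagens, rose by 1.17 ± 0.38 (0.0322), with 352 to 941 CPM in the controls against 1397, 2859, 703, 862 and 948; fish oil ozone 4 and 5 lay within the control range.

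miR-144-5p, whose mature locus starts 176 bp from that of miR-451-5p in a red cell cluster, rose by 1.23 ± 0.40 (SE; edgeR adjusted p = 0.0322), on a mean of 10.3 counts. The controls had 78.7 to 199 CPM and the rats given both 341, 559, 272, 274 and 275, with no overlap. With no low-count filter the miR-144-5p log2 difference was 1.17 and its call was lost (0.117). Its other arm miR-144-3p differed by 1.29 ± 0.52 (0.074), and miR-451-5p, the defining red cell miRNA, by 0.21 ± 0.52 (0.769). Of 6 red cell miRNAs tested, 1 rose (miR-144-5p) and 1 fell (miR-92a-3p), with a median of 0.08. Over all 136 there were 8.09% raised and 7.35% lowered, with a median of 0.10. miR-144-5p had 0 control libraries at the filter's cutoff, so its place in that count supports nothing. With the haemolysis index as a covariate, all 21 calls stood. Its mean was −2.12 in the controls and −2.14 in the rats given both. Adjusting for it could therefore shift this contrast little and decides nothing on red cells.

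CPM ranges of control and treated rats did not overlap for 9 of the 21 (5 raised, 4 lowered), against 12 of all 136 (8.82%; 3.68% above and 5.15% below the controls). Of those 5 raised, 3 are the miRNAs that passed the filter without the controls. For all 21, all 5 rats given both lay on 1 side of the control median. The 21 were picked by a test on these same values, so this adds no support. It also held for many uncalled miRNAs, among them miR-185-5p, miR-151-3p and miR-20a-5p. Some of these were far from the threshold, such as miR-210-3p (edgeR adjusted p = 0.25) and miR-320-3p (0.343). The 3 uncalled miRNAs without overlap were miR-872-5p (−0.88 ± 0.32, edgeR adjusted p = 0.0553), miR-181c-5p (−0.75 ± 0.30, 0.0722) and miR-181c-3p (−0.66 ± 0.28, 0.0829), named after their values were seen.

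Several miRNAs with the same seed took opposite values. miR-181d-5p, of a family active in lymphocyte development, ran from 3981 to 5674 CPM in the controls (median 4779), and the rats given both had 2546, 2103, 3312, 1294 and 2723. The groups did not overlap, and the log2 difference was −1.01 ± 0.25 (SE; edgeR adjusted p = 0.00849). Its neighbour miR-181c-5p, whose locus starts 171 bp away on chromosome 19, differed by −0.75 ± 0.30, while miR-181a-5p and miR-181b-5p, from other loci, had 0.45 ± 0.25 and 0.21 ± 0.25, both uncalled and both negative under the implied read total (−0.14 and −0.42).

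In the miR-181 family 1 of 4 tested members fell and none rose (median −0.27). In the miR-148 and miR-152 family 1 of 3 rose (−0.14), in the miR-15 and miR-16 family 1 of 2 (0.71) and in the miR-29 family 1 of 2 (0.83), and none fell. Beside these stand 8.09% raised, 7.35% lowered and a median of 0.10 over all 136. With 2 to 4 members, 1 call allows no reading of a family.

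Ratios of counts within a library do not depend on the scaling. These pairs were chosen after the values were seen, so the ratios are given as a description, with no test. Per count of miR-181b-5p there were 3.46 to 4.96 counts of miR-181d-5p in the controls and 1.46, 1.94, 2.32, 0.825 and 2.28 in the rats given both. Per count of miR-148a-3p there were 0.131 to 0.288 counts of miR-152-3p in the controls and 0.82, 0.544, 0.575, 0.815 and 0.35 in the rats given both. Neither pair overlapped between the groups, and miR-148a-3p and miR-148b-3p themselves differed by −0.29 ± 0.24 and −0.14 ± 0.27 (SE, both uncalled). Rats on fish oil in air had 1.14 to 2.52 for miR-181d-5p per miR-181b-5p, also below every control. Their miR-152-3p per miR-148a-3p, 0.183 to 0.831, overlapped the controls. With ozone on the normal diet these ratios were 3.01 to 7.8 and 0.1 to 0.215.

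miR-146a-5p and miR-146b-5p, induced by NF-κB and known to damp Toll-like receptor signalling, also parted. miR-146b-5p ran from 6710 to 13201 CPM in the controls (median 9610) against 5091, 5028, 8326, 5488 and 5293, and fell. miR-146a-5p ran from 3081 to 6039 CPM (median 4080) against 3105, 9400, 7328, 9879 and 5354, a difference of 0.70 ± 0.29 that missed the threshold (SE; edgeR adjusted p = 0.074) and was 0.17 under the implied read total. Per count of miR-146b-5p there were 0.349 to 0.591 counts of miR-146a-5p in the controls and 0.61, 1.87, 0.88, 1.8 and 1.01 in the rats given both, without overlap. Fish oil in air gave 0.307 to 1.11 and ozone on the normal diet 0.175 to 0.914, both overlapping the controls.

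Between the 2 most abundant miRNAs the within-library ratio moved furthest among the 12 pairs computed. miR-143-3p gave 0.372 to 0.976 counts per count of miR-191a-5p in the controls (median 0.483), and 6.26, 7.42, 2.61, 8.96 and 1.44 in the rats given both. The ratio of the medians was 13, and the groups did not overlap. Rats on fish oil in air had 0.99 to 8.34, also above every control, and rats on the normal diet in ozone 0.321 to 0.746. For miR-92a-3p per miR-25-3p the ranges were 0.686 to 0.903 in the controls and 0.174 to 0.691 in the rats given both, which touch, and miR-25-3p itself differed by −0.14 ± 0.22 (uncalled). That ratio was 0.272 to 0.557 with fish oil in air and 0.476 to 1.11 with ozone on the normal diet. miR-16-5p, with the seed of miR-497-5p, differed by −0.06 ± 0.21, and miR-29a-3p, the partner of miR-29c-3p, by 0.48 ± 0.28 (both uncalled; −0.10 for miR-29a-3p under the implied read total).

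The other abundant miRNAs were not called. The rats given both had 50293, 57679, 54130, 109257 and 54670 CPM of miR-192-5p, a miRNA of liver, gut and kidney, against 59190 to 128058 in the controls (median 87660), a log2 difference of −0.51 ± 0.28 (SE; edgeR adjusted p = 0.173). All except fish oil ozone 5 lay below every control. miR-22-3p had 53056, 40786, 33485, 66918 and 40964 against 37135 to 84172 (−0.31 ± 0.24, 0.335), and miR-21-5p 37751, 58698, 36457, 40810 and 26891 against 21917 to 37606 (0.38 ± 0.22, 0.191; −0.27 under the implied read total). Together with miR-191a-5p and miR-143-3p these took 52.6 ± 3.17% of the counts in the controls (SD, n = 6) and 50.5 ± 2.67% in the rats given both (SD, n = 5; exact permutation p = 0.294, adjusted p = 0.343).

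Some lists with members of known tissue or function held no call, where 15.4% of all 136 were called. Of 3 liver miRNAs, 5 epithelial ones, 3 of striated muscle, 5 linked to oxidative or hypoxic stress, 9 of the let-7 family and 5 of the miR-23, miR-24 and miR-27 clusters, none passed. Their medians were −0.51, 0.68, 0.30, 0.66, −0.14 and 0.13, in that order, and with the implied read total −1.28, 0.11, −0.39, 0.03, −0.75 and −0.54, beside −0.56 over all. Examples are miR-122-5p of hepatocytes (−0.75 ± 0.62, edgeR adjusted p = 0.373), miR-203a-3p of epithelium (0.68 ± 0.29, 0.0829), miR-1-3p of striated muscle (0.46 ± 0.77, 0.685), let-7c-5p (0.43 ± 0.28, 0.237) and miR-24-3p (−0.33 ± 0.20, 0.22).

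The remaining lists held 1 call in each direction at most, beside 8.09% raised, 7.35% lowered and a median of 0.10 over all 136. Of 12 miRNAs linked to lipid metabolism, miR-10b-5p (which passed the filter without the controls) rose and miR-128-3p fell, with a median of −0.13. In that list miR-33-5p, from the Srebf2 gene, had −0.27 ± 0.52 (edgeR adjusted p = 0.721) and miR-148a-3p −0.29 ± 0.24. Of 7 leukocyte and of 4 inflammation miRNAs only miR-146b-5p fell, with medians of 0.21 and 0.30; miR-155-5p, of activated leukocytes, had 0.21 ± 0.36 (0.685), and miR-150-5p, of lymphocytes, 0.59 ± 0.33 (0.191). Of 2 neural miRNAs tested miR-128-3p fell, while miR-218a-5p had 1.40 ± 0.57 (0.074) on few counts.

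With no low-count filter, miR-30e-5p, miR-30a-5p and miR-146b-5p lost their calls, as did miR-10b-5p and miR-144-5p. With single libraries left out, the number of calls ran from 10 to 33. It was 10 without normal air 5, 11 without fish oil ozone 1, 10 without fish oil ozone 3 (3 higher, 7 lower) and 33 without fish oil ozone 6. The calls of miR-92a-3p, miR-425-5p, miR-128-3p, miR-328a-3p, miR-181d-5p, miR-191a-5p, miR-199a-3p, miR-152-3p and miR-217-5p stood without each of the 23 libraries in turn. For miR-217-5p this gives no support, because it entered the test only through the fish oil groups, where it is high. miR-126a-5p lost its call only without fish oil ozone 3 (edgeR adjusted p = 0.0738). miR-143-3p lost it without normal air 3, 5 or 6 or fish oil ozone 1, 3 or 5, with an adjusted p of 0.0821 at most. The other 10 lost it without fish oil ozone 1, without fish oil ozone 3 and without normal air 5, and all of them except miR-497-5p without further libraries (among them normal air 1, 2, 3, 4 and 6, and fish oil ozone 5; for miR-30a-5p also normal ozone 2); the adjusted p at its highest was 0.236 for miR-29c-3p, 0.167 for miR-30e-5p, 0.152 for miR-144-5p, 0.138 for miR-10b-5p, 0.132 for miR-497-5p and miR-30a-5p, 0.103 for miR-363-3p, 0.0789 for miR-17-5p, 0.0754 for miR-146b-5p and 0.0747 for miR-130b-3p.

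The direct test between rats on fish oil with ozone and rats on fish oil in air asks what the second treatment adds on that diet. No miRNA passed (0%; 10 of 136 at an unadjusted p under 0.05, or 7.35%; DESeq2 also called 0, with 9 at an unadjusted p under 0.05, and limma-voom 0, with 10). The lowest adjusted p by edgeR was 0.652. miR-191a-5p differed by −0.52 ± 0.31 between them, miR-143-3p by 0.25 ± 0.34, miR-181d-5p by −0.59 ± 0.25 and miR-217-5p by −0.16 ± 0.78 (SE). Over the 21 miRNAs changed against the controls, these differences ran from −0.98 to 0.60. A p that misses the threshold does not show that the groups were alike.

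Against rats on the normal diet in ozone, 31 miRNAs differed (22.8%), 17 higher (12.5%) and 14 lower (10.3%), with 34.6% at an unadjusted p under 0.05; 12 differed without fish oil ozone 3. The log2 difference was −1.77 ± 0.32 for miR-191a-5p (SE; adjusted p = 0.000642 by edgeR), −1.32 for miR-181d-5p (0.000824) and −1.37 ± 0.28 for miR-128-3p (0.0011). miR-199a-3p was higher by 1.50 ± 0.30 (0.00103), miR-152-3p by 1.44 (0.00251) and miR-143-3p by 1.27 (0.00945). The threshold was missed by miR-217-5p (2.15, edgeR adjusted p = 0.0655), miR-425-5p (−0.62, 0.0656), miR-363-3p (−1.47, 0.0601) and miR-126a-5p (0.68, 0.0986). miR-126a-5p had 1 high rat on the normal diet in ozone, replicate 6 at 28465 CPM, where the other 5 had 9842 to 13702.

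The single treatments were measured against the same 6 control rats, so their values are set side by side and not compared as independent results. With fish oil in air 8 miRNAs changed (5.88%; 1 higher, 0.735%, and 7 lower, 5.15%). With ozone on the normal diet 0 changed by edgeR (4 at an unadjusted p under 0.05, 2.94%; 1 by DESeq2, miR-22-3p, with 4 unadjusted; 0 by limma-voom, with 5). miR-191a-5p differed by −1.83 with both, −1.31 with fish oil and −0.05 with ozone; miR-143-3p by 1.10, 0.86 and −0.17; miR-199a-3p by 1.36, 0.89 and −0.15. miR-217-5p had 3.97, 4.13 and 1.82, and miR-126a-5p 1.15, 0.60 and 0.47. miR-181d-5p had −1.01, −0.42 and 0.31. In the same order miR-128-3p had −1.46, −0.99 and −0.09, miR-328a-3p −1.66, −1.23 and −0.03, and miR-425-5p −0.88, −0.87 and −0.26.

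**Figure D5:**
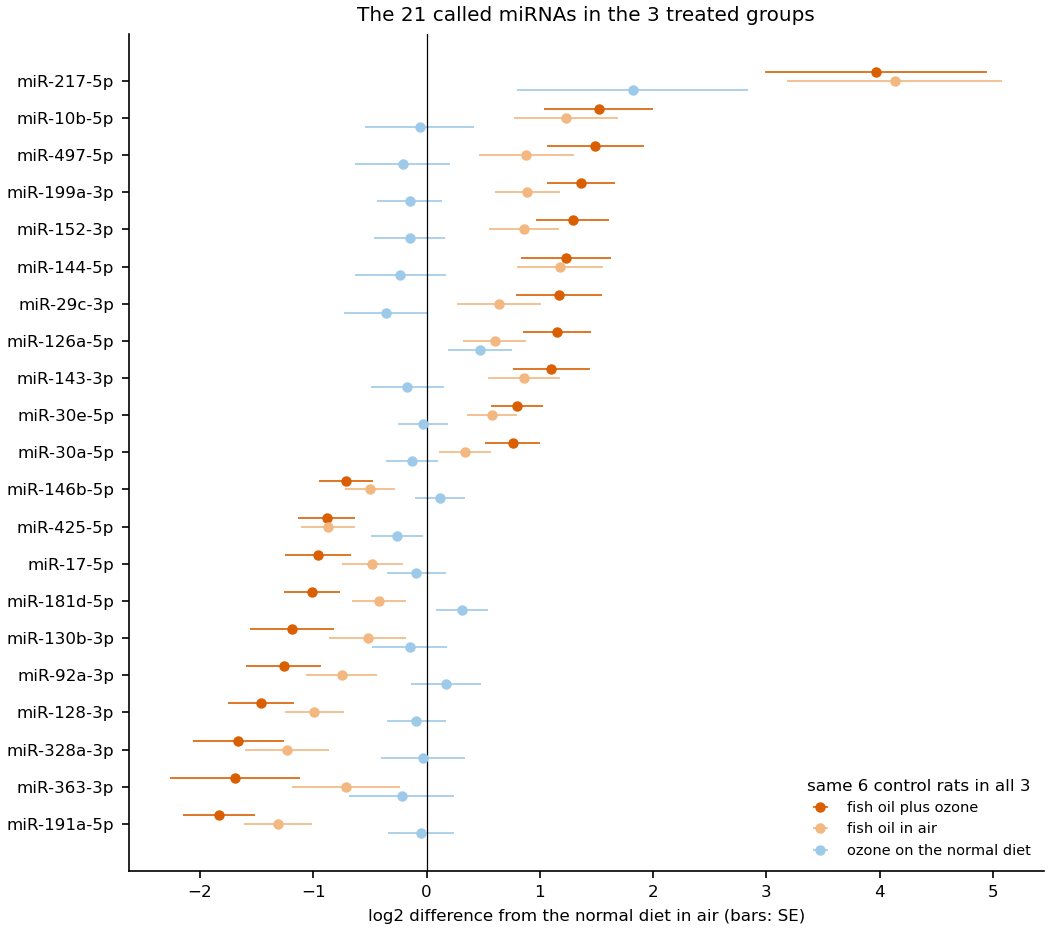
Log2 difference from the normal diet in air (horizontal; bars are SE) of the 21 changed miRNAs (vertical) in rats given fish oil plus ozone, fish oil in air and ozone on the normal diet. The same 6 control rats enter all 3 values; ozone on the normal diet ranges from −0.36 to 1.82, and fish oil in air from −1.31 to 4.13.

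The interaction, the departure of the combined value from the sum of the single ones on the log2 scale, was called for no miRNA (0%; 6 of 136, 4.41%, at an unadjusted p under 0.05; 0 and 6 by DESeq2, 0 and 7 by limma-voom; lowest edgeR adjusted p = 0.459). For miR-181d-5p it was −0.90 ± 0.34 (SE; 0.459), for miR-191a-5p −0.46 ± 0.43 and for miR-143-3p 0.42 ± 0.47.

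miR-122-5p and miR-192-5p of the liver list fell with fish oil in air and were not called in the rats given both. miR-122-5p differed from the controls by −2.06 with fish oil in air (edgeR adjusted p = 0.0476) and by −0.75 with both (0.373), and miR-192-5p by −1.08 (0.012) and −0.51 (0.173). The direct difference between those groups was 1.31 ± 0.62 for miR-122-5p and 0.57 ± 0.27 for miR-192-5p (SE; both 0.652), and the interactions were 2.07 ± 0.85 and 0.92 ± 0.38 (both 0.532), so a difference between the treatments was not shown. Ozone on the normal diet gave −0.76 and −0.36. These 2 were picked after their values were seen.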

How the data were processed

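Small RNA from 100 µl of serum per rat (10 ng of RNA per library) was read for 50 cycles from 1 end, per the labels' protocols. The deposited table of expected counts gives reads per mature miRNA locus (832 loci, 50 with fractions), and the other table the authors deposited gives RPM, the summed counts divided by a read total per library plus 0.0001 (matched within 0.0255 reads). That total is not stated and was worked out from both tables (implied read total). Tools named in the submitters' processing notes are bcl2fastq, Partek and Bowtie 1.0.0, with genome build rn5; what each step did, and the annotation, is not given in the sources used here. Positions are as deposited, with no statement on 0-based or 1-based counting.

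Loci of 1 name were summed (753 names, 440 with a count) and rounded. All 23 libraries, 1 mean per group, were fitted with edgeR 4.0.16 in R 4.3.3 (quasi-likelihood F test, robust, two-sided), after a filter by group (minimum count 10, total 15) that kept 136 miRNAs with 99.3% of the counts. The fit and its code were tested on simulated data. SE is the log2 difference over the square root of F. Adjusted p-values (Benjamini-Hochberg, threshold 0.05) run over all 136; those quoted alone in parentheses come from that fit. Library measures were compared by two-sided exact permutation tests. Nothing beyond the labels says that rats of a group were handled separately, so p-values measure the spread between these samples. The protocol names no molecular identifiers, so the floors given cover counting error only.

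Named are the 12 smallest p in each direction among called miRNAs, called list members, the 5 most abundant and the highest-count member of each list. Members, lists, families and tests were chosen with earlier results of these data known. Related miRNAs (same seed, other arm, within 10000 bp) and count ratios were picked after their values were seen. Gene spans come from RefSeq GRCr8 without comparing strands. Alternatives were DESeq2 1.42.0, limma 3.58.1 (voom, and RPM with pseudocounts of 10 and 1), other scalings and filters, and leaving out each library.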

Additional observations from a re-analysis of the deposited data

Results flagged for a closer look

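In 84 groups of values (35 named miRNAs and 7 library measures, in the control rats and in the rats given both), 1 library stood apart from its group 10 times by Dixon's criterion, which chance meets in about 1 in 20 groups. No cause was tested for any of them.

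Normal air 4 had the highest miR-143-3p of the controls, 271247 CPM where the others had 86735 to 129192, and a share of 22% of the counts where the others had 8.22 to 11.8%. The same rat had 40183 CPM of miR-30a-5p (others 18753 to 25730). Both miRNAs were called higher in the rats given both, and this control lies inside their treated ranges. Normal air 1 had 1900 CPM of miR-1-3p, of striated muscle, where the other controls had 0 to 570.

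Fish oil ozone 3 had 559 CPM of miR-144-5p (others 272 to 341) and 7230 CPM of miR-29a-3p (others 3518 to 4508). Fish oil ozone 4 had 158 miRNAs with 5 or more counts (others 134 to 138), 8326 CPM of miR-146b-5p (others 5028 to 5488) and 318 CPM of miR-363-3p (others 0 to 91.8). Fish oil ozone 5 had 109257 CPM of miR-192-5p (others 50293 to 57679).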

How the results depend on the processing

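All changed miRNAs kept their direction under every alternative in which they were tested, and miR-425-5p, miR-92a-3p, miR-181d-5p, miR-128-3p, miR-191a-5p and miR-328a-3p their call too. The counts moved. DESeq2 gave 16 lower, total count scaling 6 lower, the implied read total 1 higher and 29 lower, and a fit of the 2 compared groups alone 17 higher. limma on log2(RPM + pseudocount) gave 0 higher and 19 lower at a pseudocount of 10, and 1 higher and 32 lower, 33 in all, at 1. Leaving out 1 library at a time gave 10 to 33 calls, 3 to 14 higher and 6 to 19 lower, and 12 to 34 against ozone alone; against fish oil alone and for the interaction it gave 0 each time.

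As a share of the implied read total, miR-143-3p differed by 0.0727 percentage points (exact permutation, adjusted p = 0.209). For miRNAs with 5 or more counts the mean difference of −20.9 (−26.4 to −17.4 with 1 library left out; exact permutation adjusted p = 0.0417 without normal air 4) became 6.53 once each library was thinned to 23276 counts (adjusted p = 0.13). The haemolysis measure (erythrocyte index) differed by −0.0203, and by −0.414 to 0.348 with 1 library left out, so it had no stable direction. Of 22 lists 13 had a median above 0, and 8 with the implied read total. No paired analysis was possible because animal numbers differ in each group. miRNA counts of 26772 to 45064 per treated library limit the precision of rare miRNAs such as miR-217-5p, miR-10b-5p and miR-144-5p.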
